A study of Trichoderma reesei with 6 samples.

Results

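The gene models described here sat at a moderate level in hyphae of Trichoderma reesei fermenting glucose and at 0.25 of that level or less in hyphae fermenting xylose. They were chosen on the measured values. A model had to average at least 10 and under 300 FPKM over the 3 glucose libraries, its xylose mean had to be at most 0.25 of its glucose mean, and its highest xylose library had to lie below its lowest glucose library. Models named for scaffolds 7, 29 and 33 were left out, 18 of which otherwise met the rule. FPKM counts sequenced fragments relative to model length and to the total of the library. The rule found 81 of 9129 models. That is 3.2% of the 2531 models in the same glucose range on the other scaffolds, which are called the range below.

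The tested cultures were 3 libraries from anaerobic fermentation of xylose and the others were 3 libraries from anaerobic fermentation of glucose. All 6 came from hyphae of strain HJ48 at an age of 4 days, and the labels list no other treatment. The series title calls the strains recombinant, without naming a construct. Nothing in the labels says whether libraries of a sugar came from separate cultures, so the spread between them may be technical.

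Trichoderma reesei is a filamentous fungus used to produce cellulases. In such fungi, glucose enters glycolysis directly, whereas xylose is reduced to xylitol, oxidised to xylulose and phosphorylated before it joins the pentose phosphate pathway. Glucose also acts through the repressor CRE1, which holds down many genes for other carbon sources, and xylose acts through the activator XYR1. These are background facts about the fungus. None of the 9129 model names matched an identifier of the reference gene table used here, so 0 of the 81 members could be given a symbol, a product or a sequence, and no member is assigned to any of these pathways.

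Implied library totals were 10739898 to 11449774 reads in xylose and 8887469 to 10102493 in glucose (every xylose total above every glucose total). Over all models, the median level was 11.3 ± 2.66 FPKM in xylose and 3.63 ± 0.27 FPKM in glucose (SD, n = 3 each). Most models therefore moved up relative to the library total while the members moved down. FPKM is a share of a library, and lower RNA of a model per cell cannot be told apart from more RNA of other models.

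Members had a median of 6.96 FPKM in xylose and 43.8 FPKM in glucose, taking each member's mean over 3 libraries. Their xylose level was 1.74% to 24.95% of their glucose level, with a median of 17.5%. For the other 2450 models of the range the median was 135%. By this measure 9 members were at or below 0.05 of their glucose level, 8 lay between 0.05 and 0.1, 16 between 0.1 and 0.15, 18 between 0.15 and 0.2, and 30 between 0.2 and 0.25. The class next to the limit of the rule thus held the most members, and the classes with the deepest differences held the fewest.

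**Figure D1:**
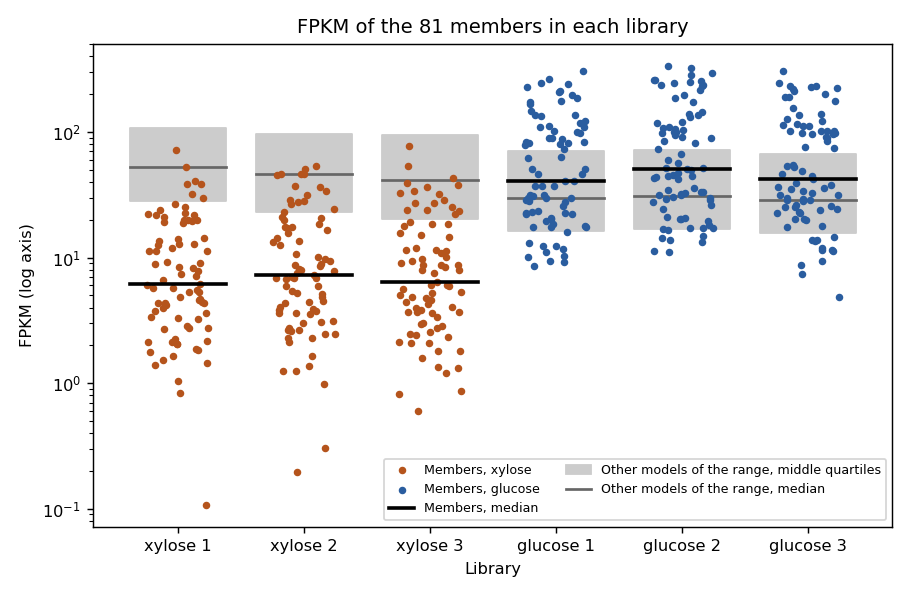
FPKM on a log axis of the 81 members in each of the 6 libraries (points), with the members' median (black bar) and the median and middle quartiles of the other 2450 models of the glucose range (grey). The members' medians were 6.13 to 7.31 FPKM in the xylose libraries and 41.0 to 50.5 FPKM in the glucose libraries, while the grey medians were 41.4 to 52.7 in xylose and 28.7 to 30.7 in glucose.

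All members kept some reads on xylose, and no member was at 0 in any library. Some of these values rest on a minimum of reads. The model fgenesh5_pg.C_scaffold_27000085 had 1 read in xylose replicate 1, and fgenesh5_pg.C_scaffold_1000649 had 1 read in xylose replicate 2. Mean xylose levels were under 1 FPKM for 2 members, 1 to 5 for 29, 5 to 10 for 18, 10 to 20 for 14 and at least 20 FPKM for 18. Only 1 member was under 1 FPKM in all 3 xylose libraries. In every xylose library 44 members lay below the median of all models and 20 lay above it, while all 81 lay above the median of all models in every glucose library. The words "nearly lost" therefore describe the lower end of the set, and for the 20 members above the xylose median the level was reduced but not low.

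Rank within a library does not depend on how libraries are scaled. The median member ranked above 39.6% of all models in xylose and above 84.1% in glucose, each as a mean over 3 libraries. For the other models of the range these medians were 79.3% in xylose and 80.5% in glucose. The members were chosen on these same levels, so a high rank in glucose and a lower one in xylose follow largely from the rule. By library, the members' median rank was 32.3%, 40.8% and 43.2% in xylose replicates 1, 2 and 3, and 84.0%, 85.6% and 84.3% in glucose replicates 1, 2 and 3.

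In a limma fit of log2(FPKM + 1) over the 7766 models whose mean reached 1 FPKM, 1095 were lower in xylose at an adjusted p under 0.05, which is 14.1%, and 5035 were higher, which is 64.8%. All 81 members passed the filter and all 81 were among those lower models, a count that follows from a rule on the same contrast. Their log2 fold changes, xylose minus glucose, ran from -5.26 to -1.75 with a median of -2.33, against a median of 1.1 over all tested models. Of the other models of the range, 522 were lower and 1162 higher. Every xylose library lay below every glucose library in 15.2% of tested models and in 25.2% of the range, members included. No model of the range met the ratio limit with overlapping groups, so that part of the rule removed nothing.

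**Figure D2:**
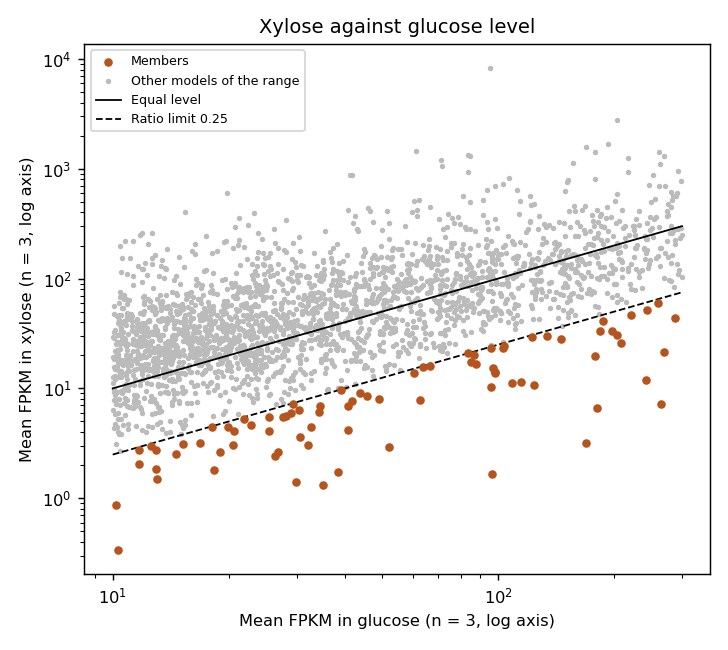
Mean FPKM in xylose against mean FPKM in glucose, both on log axes (n = 3 libraries each), for the 81 members (orange) and the other 2450 models of the range (grey). The solid line marks equal levels and the dashed line the ratio limit of 0.25, below which all members lie.

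Members were found at all levels of the range and made up a larger share at the top. They were 15 of 839 models between 10 and 20 FPKM in glucose (1.79%), 28 of 821 between 20 and 50 (3.41%), 15 of 444 between 50 and 100 (3.38%), 14 of 298 between 100 and 200 (4.70%), and 9 of 129 between 200 and 300 (6.98%). The median ratio of xylose to glucose among members was 0.175, 0.181, 0.190, 0.175 and 0.15 in those 5 classes. Both the level and the ratio were set by the rule, so these medians are a description of the chosen models.

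The 10 members with the lowest ratios were 17.6-fold to 57.5-fold lower in xylose. Folds given here and below are ratios of mean FPKM. The log2 fold changes come from log2(FPKM + 1), which shrinks differences at low levels, so the measures can rank models differently. The lowest ratio was that of fgenesh5_pg.C_scaffold_5000032. It had 1.04, 2.63 and 1.34 FPKM in xylose replicates 1, 2 and 3, against 87.4, 99.2 and 102 FPKM in glucose replicates 1, 2 and 3. It had 96 reads over the 3 xylose libraries and 4709 over the 3 glucose libraries, and its log2 fold change was -5.23 (SE 0.24). All glucose libraries of this model were close together, and the highest xylose library was replicate 2.

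On scaffold 1, fgenesh5_pg.C_scaffold_1000534 had 3.62, 3.09 and 2.86 FPKM in the xylose libraries, against 134, 258 and 116 FPKM in the glucose libraries. It was 53.0-fold lower in xylose, with a log2 fold change of -5.26 (SE 0.28). Its glucose replicate 2 stood well above the other glucose libraries, and its xylose libraries were alike. The model e_gw1.1.1629.1, on the same scaffold, also had a high glucose replicate 2, with 4.19, 6.91 and 8.76 FPKM in xylose against 147, 260 and 136 FPKM in glucose. It was 27.3-fold lower.

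Both a deep difference and a high glucose level were found in fgenesh5_pg.C_scaffold_1000537, with 8.90, 6.80 and 6.02 FPKM in xylose, against 247, 321 and 226 FPKM in glucose. It was 36.6-fold lower, with a log2 fold change of -5.01 (SE 0.20). The same holds for fgenesh5_pg.C_scaffold_5000031, with 7.46, 17.5 and 11.2 FPKM in xylose and 227, 253 and 245 FPKM in glucose, 20.1-fold lower. In both models the lowest glucose library was more than 10 times the highest xylose library.

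Several of the deepest members rested on few xylose reads. The model fgenesh5_pg.C_scaffold_27000085 had 0.107, 0.303 and 0.604 FPKM in xylose, against 12.3, 11.2 and 7.41 FPKM in glucose, from 10 reads in all 3 xylose libraries and 256 in the glucose libraries. It was the member under 1 FPKM in every xylose library. For fgenesh5_pg.C_scaffold_26000083 the values were 1.65, 0.994 and 1.32 FPKM in xylose and 29.8, 43.9 and 31.6 FPKM in glucose, from 35 and 806 reads. For fgenesh5_pg.C_scaffold_9000020 they were 1.85, 1.24 and 2.11 FPKM in xylose and 41.0, 44.7 and 29.8 FPKM in glucose, from 41 and 781 reads. Read numbers of this size limit the precision of the ratio.

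The remaining 2 of these 10 varied most between glucose libraries. The model kg2.C_scaffold_37000002 had 2.14, 1.25 and 0.869 FPKM in xylose, against 25.6, 50.5 and 13.5 FPKM in glucose. In fgenesh5_pg.C_scaffold_16000174 the values were 2.11, 3.77 and 2.97 FPKM in xylose and 89.0, 20.9 and 46.3 FPKM in glucose. Its glucose replicate 1 was 4.27 times replicate 2, the widest glucose spread of any member, and the groups still lay far apart.

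**Figure D3:**
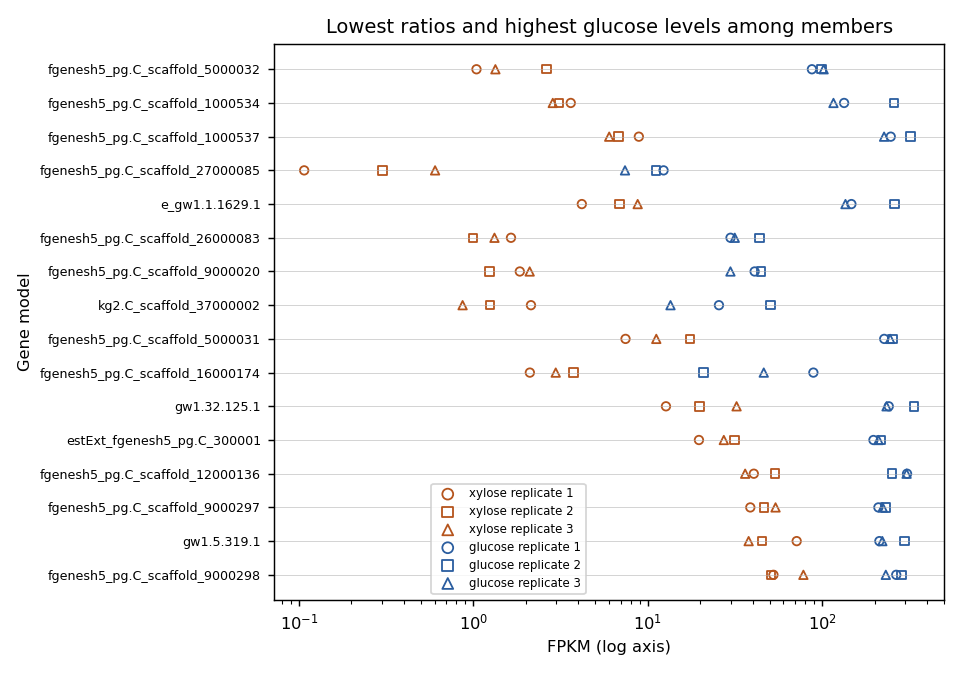
FPKM on a log axis in each library for the 10 members with the lowest ratio of xylose to glucose and the 8 with the highest glucose level, 16 models in all, ordered from the lowest ratio at the top. Orange symbols are xylose libraries and blue symbols glucose libraries, and the symbol shape gives the replicate.

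The 8 members with the highest glucose level averaged 207.9 to 288 FPKM there. The highest was fgenesh5_pg.C_scaffold_12000136, with 40.6, 53.5 and 36.2 FPKM in xylose, against 307, 252 and 305 FPKM in glucose, and a log2 fold change of -2.71 (SE 0.17). The model gw1.32.125.1 had 12.7, 19.8 and 32.3 FPKM in xylose and 241, 336 and 234 FPKM in glucose. Of these 8 members, 6 were above 10 FPKM in every xylose library, and the exceptions were fgenesh5_pg.C_scaffold_1000537 and fgenesh5_pg.C_scaffold_5000031.

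The largest number of reads belonged to estExt_fgenesh5_pg.C_300001, with 3288 reads over the xylose libraries and 22354 over the glucose libraries. Its values were 19.7, 31.4 and 27.3 FPKM in xylose and 197, 217 and 210.3 FPKM in glucose, 7.96-fold lower. The model gw1.5.319.1 had 71.4, 45.2 and 37.9 FPKM in xylose and 213, 297 and 221 FPKM in glucose, 4.73-fold lower. Its xylose replicate 1 was the highest of the 3, while in estExt_fgenesh5_pg.C_300001 replicate 1 was the lowest.

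Values just inside and just outside the limits were close to each other. Just inside the ratio limit, estExt_GeneWisePlus.C_260006 was at 24.95% of its glucose level, e_gw1.12.140.1 at 24.8% and estExt_GeneWisePlus.C_220031 at 24.7%. Just outside, e_gw1.9.21.1 was at 25.1%, estExt_fgenesh5_pg.C_220009 at 25.15% and e_gw1.30.36.1 at 25.6%. At the lower level limit, fgenesh5_pg.C_scaffold_1000649 averaged 0.870 FPKM in xylose and 10.2 in glucose, and e_gw1.27.30.1, at 0.584 in xylose and 9.85 in glucose, was left out. At the upper limit, kg2.C_scaffold_1000148, at 76.6 FPKM in xylose and 310 in glucose, was left out.

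As a group the members gave 0.118% ± 0.00806 of summed FPKM in xylose and 0.748% ± 0.0665 in glucose (SD, n = 3 each). Their summed FPKM was 940, 1054 and 999.8 in xylose replicates 1, 2 and 3, against 6110, 7458 and 6247 in glucose replicates 1, 2 and 3. The sum was highest in replicate 2 of both sugars. By reads, the members held 0.113% ± 0.00757 of the implied total in xylose and 0.748% ± 0.0905 in glucose.

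The rule named no order of libraries within a sugar, but it used the means, the highest xylose library and the lowest glucose library. A low or high value in a given library could help a model meet it, so the order is not independent of the rule. Here the members differed in count from the other models of the range. The lowest xylose value was in replicate 1 for 39 members (48.1%), in replicate 2 for 15 and in replicate 3 for 27. Among the other models of the range, replicate 1 was lowest in 19.1%, replicate 2 in 26.7% and replicate 3 in 54.2%. Xylose replicate 1 was the highest library for 27.2% of the members and for 60% of the others. The counts depend on how libraries are scaled. With levels divided by median-of-ratios size factors, replicate 1 was the lowest xylose library for 61 members (75.3%) and for 57.7% of the range, members included, and on TPM for 37 members (45.7%) and 18.9% of the range. The members share the same 3 libraries, so these counts describe the libraries and carry no test.

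The glucose libraries also ordered the members unevenly. Glucose replicate 2 held the highest value for 57 members (70.4%) and for 45.5% of the other models of the range. This count was 47 members (58%) with the median of ratios, where the range had 37.3%, and 48 members (59.3%) on TPM, where the range had 38.9%. Replicate 1 was the lowest glucose library for 46 members (56.8%) and for 27.8% of the others. In 7 members (8.64%) the highest glucose library was more than 2 times the lowest, against 2.57% of the range, members included. In 6 of these 7 members replicate 2 was highest and replicate 3 lowest. Leaving out glucose replicate 2, 73 models met the rule, 70 of them members.

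**Figure D4:**
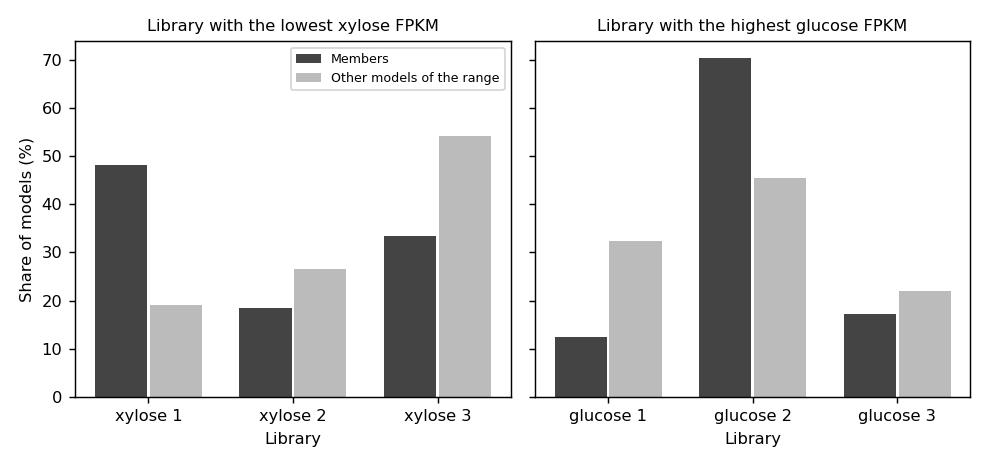
Share of models (%) whose lowest xylose value (left) or highest glucose value (right) fell in each replicate, for the 81 members (dark) and the other 2450 models of the range (light). Xylose replicate 1 was lowest for 48.1% of members and 19.1% of the others, and glucose replicate 2 was highest for 70.4% of members and 45.5% of the others.

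Spread between libraries was wider in the members than in the other models of the range. The median SD of log2(FPKM + 1) was 0.27 for members and 0.22 for the others in xylose, and 0.21 for members and 0.16 for the others in glucose. The members had fewer reads in xylose, with a median of 251 over 3 libraries against 1969 for the others. In glucose they had more, with a median of 1650 against 1157 for the others, and the spread was wider there too. The reason for the wider spread was not tested, and the rule used the values of these same libraries. Among members above 1 FPKM throughout, fgenesh5_pg.C_scaffold_37000007 varied most in xylose, with 5.77, 2.13 and 1.21 FPKM there and 17.6, 32.3 and 11.5 FPKM in glucose. Next came estExt_fgenesh1_pm.C_120125, with 25.3, 12.6 and 7.92 FPKM in xylose and 72.8, 119.5 and 98.4 FPKM in glucose, and estExt_GeneWisePlus.C_460047, with 23.8, 8.81 and 9.09 FPKM in xylose and 61.7, 67.1 and 52.4 FPKM in glucose. In each of these 3 models xylose replicate 1 was the high library, unlike in the set as a whole. With no lower limit on FPKM, 19 members (23.5%) had a highest xylose library more than 2 times the lowest, against 11.5% of the range, members included. The highest library was replicate 1 in 8 of these 19 members, replicate 2 in 2 and replicate 3 in 9.

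The 3 members with the lowest ratio of the highest to the lowest xylose library were close to constant on that sugar. The model e_gw1.1.977.1 had 9.02, 9.44 and 8.78 FPKM in xylose and 37.3, 45.2 and 48.8 FPKM in glucose. In e_gw1.9.433.1 the values were 6.13, 5.92 and 6.41 FPKM in xylose and 28.7, 45.0 and 29.1 FPKM in glucose, with glucose replicate 2 well above the others. In fgenesh1_pm.C_scaffold_2000162 they were 19.8, 21.2 and 19.3 FPKM in xylose and 80.0, 94.1 and 84.9 FPKM in glucose.

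Member names differed in kind from those of the range. The names fall into series by their prefix, and the files do not say how the series were made. Names that begin with estExt were borne by 14 members (17.3%), against 1198 models of the whole range (47.3%). The share was 61.8% among the 241 models of the range that were at least 4 times higher in xylose with no overlap, and 45.7% among the 1450 models whose ratio lay between 0.5 and 2. These comparison groups were chosen after the values were seen. The fgenesh5_pg series gave 36 members (44.4%) and 18.1% of the range.

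The share of estExt names was lower among members than in the range in every level class. These names were 6.67% of members and 43.7% of the range between 10 and 20 FPKM in glucose, and 14.3% of members and 48.4% of the range between 20 and 50. They were 40% of members and 50.9% of the range between 50 and 100, and 13% of members and 48.7% of the range between 100 and 300. With 14 such members in all, each class rests on 1 to 6 models.

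Implied lengths, solved from the steps between FPKM values, had a median of 1056 nt for members and 1273 nt for the other models of the range. Among names without estExt the medians were 945 nt for members and 1023 nt for the range, and among estExt names 1650 nt for members and 1505 nt for the range. The shortest members were fgenesh5_pg.C_scaffold_3000390 at 192 nt and fgenesh5_pg.C_scaffold_1000019 at 276 nt. The first had 1.46, 2.28 and 1.82 FPKM in xylose, from 12 reads, and 11.1, 13.9 and 13.8 FPKM in glucose, from 72 reads. The second was the steadiest member in glucose, with 12.8, 14.3 and 15.2 FPKM in xylose and 98.7, 98.6 and 97.2 FPKM in glucose. The longest were fgenesh5_pg.C_scaffold_10000079 at 4177 nt, 5.33-fold lower, and estExt_fgenesh5_pg.C_300001 at 3726 nt.

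Members lay on 24 of the 46 scaffolds of the range. Scaffold 5 held 11 members among 146 models of the range (7.53%) and scaffold 1 held 11 among 300 (3.67%). Scaffold 27 held 5 of 44, scaffold 26 held 4 of 40, scaffold 30 held 3 of 26 and scaffold 32 held 3 of 16. Scaffolds 6 and 8, with 96 and 123 models of the range, held none. No test was made of these counts, and neighbouring models need not be independent.

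Within a name series, 2 pairs of members had adjacent numbers, and in the fgenesh5_pg series the number is taken to follow the order along the scaffold, which was not checked against a genome. The first pair, fgenesh5_pg.C_scaffold_5000031 and fgenesh5_pg.C_scaffold_5000032, was 20.1-fold and 57.5-fold lower. In both, xylose replicate 2 was the highest and replicate 1 the lowest xylose library, an order held by 24.7% of members and 7.7% of the range. Further along the same scaffold, fgenesh5_pg.C_scaffold_5000040 had 1.88, 2.77 and 2.56 FPKM in xylose and 22.1, 31.6 and 25.6 FPKM in glucose. The member fgenesh5_pg.C_scaffold_5000048 had 2.83, 2.47 and 2.35 FPKM in xylose and 11.7, 18.2 and 13.9 FPKM in glucose. These 4 members were not a closed block, because fgenesh5_pg.C_scaffold_5000036 and fgenesh5_pg.C_scaffold_5000045 stood between them at 52.2% and 81.8% of their glucose level. Models of other name series cannot be placed by these numbers, so more models may lie between or beside members here and below.

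The second pair, fgenesh5_pg.C_scaffold_9000297 and fgenesh5_pg.C_scaffold_9000298, was alike in level and in ratio. The first had 38.7, 46.6 and 54.1 FPKM in xylose and 210.1, 231 and 222 FPKM in glucose, 4.76-fold lower. The second had 52.6, 51.0 and 78.1 FPKM in xylose and 266, 285 and 232 FPKM in glucose, 4.31-fold lower. Both kept over 35 FPKM in every xylose library.

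**Figure D5:**
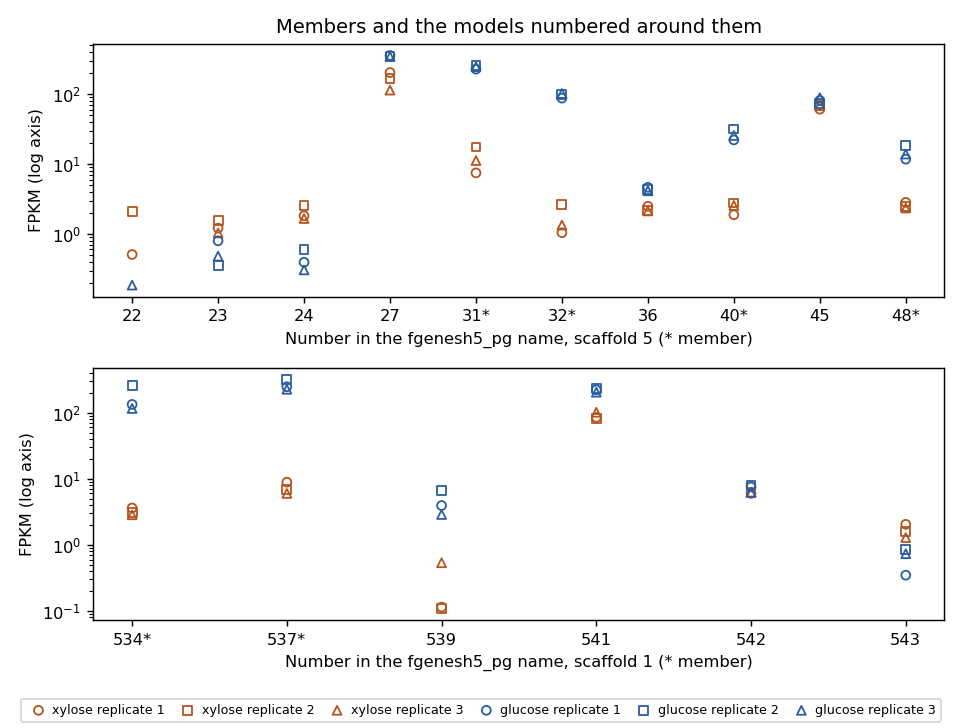
FPKM on a log axis of the fgenesh5_pg models numbered 22 to 48 on scaffold 5 (top) and 534 to 543 on scaffold 1 (bottom), in the order of their numbers, with members starred. Orange symbols are xylose and blue symbols glucose libraries, and libraries at 0 are not drawn. The members show wide gaps between the sugars, and so does the model numbered 539 on scaffold 1, which is no member. Smaller gaps in the same direction show in models 27 and 36 on scaffold 5 and 541 on scaffold 1. Some models were higher in xylose, such as 24 on scaffold 5. The models numbered 45 on scaffold 5 and 542 on scaffold 1 show no wide gap.

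Some models next to members shared the direction but missed the level limits. On scaffold 1, fgenesh5_pg.C_scaffold_1000539 follows the members numbered 534 and 537 and had 0.114, 0.108 and 0.537 FPKM in xylose, against 3.94, 6.76 and 2.89 FPKM in glucose. All 3 of these models had glucose replicate 2 as the highest and replicate 3 as the lowest glucose library, an order held by 27.2% of members and 26.6% of the range. Beside fgenesh5_pg.C_scaffold_9000020, the model fgenesh5_pg.C_scaffold_9000021 averaged 0.219 FPKM in xylose and 7.47 in glucose. Near fgenesh5_pg.C_scaffold_26000083, the model fgenesh5_pg.C_scaffold_26000081 averaged 54.0 FPKM in xylose and 766 in glucose, too high for the rule. Other models next to members were higher in xylose. On either side of the member fgenesh5_pg.C_scaffold_10000170, fgenesh5_pg.C_scaffold_10000169 and fgenesh5_pg.C_scaffold_10000171 were at 3.91 and 4.29 times their glucose level.

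Over the 36 members of the fgenesh5_pg series, 43 other models of that series lay within 3 numbers of a member. Of the 31 of these that were tested, 10 were lower in xylose (32.3%) and 11 higher (35.5%), by limma at an adjusted p under 0.05. Over all 1616 tested models of the series these shares were 18.6% lower and 54.6% higher. The series here includes the 36 members, all of them lower, and leaves out no scaffold, whereas the neighbours include no member. The median log2 fold change was 0.16 for the neighbours and 0.76 for the series. Neighbours share the 6 libraries and each other's surroundings, and the difference between the shares was not tested.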

How the data were processed

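RNA was measured in 6 libraries. Trizol was used for the RNA and an NEBNext Ultra DNA kit for the libraries, per the labels' protocols. The authors deposited 1 table of FPKM for 9129 models. Without saying which step each did, the submitters' processing notes list HTSeq 0.6.1, TopHat2 2.0.12 and Bowtie2 2.2.3. The sources used here do not give the genome build, the annotation or the use of strand. Overlapping or near-identical genes may share reads.

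Columns were matched by the descriptions in the labels. Library totals, reads and lengths were solved from the steps between FPKM values, with whole reads for 9008 models (99.98% of those above 0; tolerance 1e-05 reads plus a relative 3e-09). A solved length is the smallest that fits and can be too short. No molecular identifiers are described, so PCR copies count as reads.

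For models averaging 1 FPKM or more over the 6 libraries, log2(FPKM + 1) was fitted by sugar with limma 3.58.1 in R 4.3.3 (eBayes with a trend, two-sided, Benjamini-Hochberg over all tested models, threshold 0.05), after a test on simulated reads. Values printed per member are FPKM as deposited, in Python 3.11.15. Named models were the 10 with the lowest ratio, the 8 highest in glucose, those nearest the limits, runs of neighbouring numbers, and the extremes of xylose spread (3 at each end) and length (2 at each end). The neighbours and the scaffolds described beside them fall outside that rule and were chosen after their values were seen. The members and all lists were chosen with earlier results of these data known. Gene lists by product were not used, as 0 of 9129 names matched the 9116 genes of the reference table. Alternatives were other pseudocounts, filters, scalings and limits of the rule, the replicate block, voom on solved reads, and leaving out each library.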

Additional observations from a re-analysis of the deposited data

How the results depend on the processing

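The count of 81 members lower in xylose held under all 16 other fits and at a threshold of 0.01, as did the direction and the call of each named member. The rule chose the members on the same contrast in the same libraries, so this outcome follows largely from the choice and is no independent support. Scaling changed sizes. Under median-of-ratios scaling and quantile normalization, the members' median log2 fold change of -2.33 became -3.43 and -3.25, all tested models called lower numbered 2752 and 2581 in place of 1095, and those called higher 2859 and 2648 in place of 5035, so 51% and 50.6% of calls were higher against 82.1%. These scalings take out the common shift by construction, and the median over all tested models was 0.05 and 0.04 in place of 1.1. A pseudocount of 5 gave the members a median of -1.93, since it shrinks low values. The rule itself found 51 models with a ratio limit of 0.2, 419 on levels scaled by the median of ratios (71 of them members) and 74 on TPM (70 members). Leaving out each library gave 73 to 86 models, 959 to 1172 models lower, 4685 to 5247 higher and member medians of -2.41 to -2.21. The members' summed level in xylose was 0.151 of that in glucose, and 0.0662 with the median of ratios, under which 61 members in place of 39 were lowest in xylose replicate 1. With the replicate block 81 members, 1067 models lower and 5034 higher were called. The labels do not pair the numbers, and deviations of equal numbers correlated at 0.001, -0.072 and 0.073, so no pairing was taken. Depth limits members with few xylose reads, the lowest having 10.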

Other observations

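Scaffold 46 held 2 members among 18 models. Its member e_gw1.46.46.1 had 1.40, 2.28 and 1.80 FPKM in xylose and 20.4, 14.3 and 20.3 FPKM in glucose. The other member, estExt_GeneWisePlus.C_460047, is described above. The remaining 16 models of the scaffold reached at most 4.12 FPKM in any library, so both of its models in the glucose range were members.

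On scaffold 37, kg2.C_scaffold_37000002 and fgenesh5_pg.C_scaffold_37000007 had the same order of libraries in both sugars. Replicate 1 was the highest and replicate 3 the lowest in xylose, an order held by 19.8% of members and 42.4% of the range. Replicate 2 was the highest and replicate 3 the lowest in glucose, an order held by 27.2% of members and 26.6% of the range, so each order alone is common. Of the other 38 tested models named for this scaffold, 4 were lower and 23 higher in xylose by limma at an adjusted p under 0.05 (10.5% and 60.5%), near the 14.1% lower and 64.8% higher over all tested models. The models were singled out after their values were seen.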
